A study of Mus musculus with 24 samples.

Results

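Immediate early genes are genes whose transcription starts within minutes of a stimulus, without new protein synthesis, and the transcripts disappear soon after. In neurons, calcium entry drives them through kinases that act on CREB, which binds the cAMP response element (CRE), and on SRF, which binds the CArG box. Handling, dissection and other stress induce many of the same genes in any cell, so a dissected tissue can hold both kinds of signal. *Hist2h2be* encodes H2BE, a replication-independent variant of histone H2B that is made in olfactory sensory neurons (OSNs) and is known to be lower in OSNs whose odorant receptor is often activated.

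The genes described here are *Fos*, *Fosb*, *Egr1*, *Junb*, *Arc*, *Npas4*, *Nr4a1*, *Ier2*, *Dusp1* and *Hist2h2be*, 10 of the 45706 genes in the deposited table. They were chosen by name for their known response to activity, with no threshold on measured values, at a time when earlier results of these data were known. *Hist2h2be* stands in the table under its newer symbol, *H2bc21*, and was matched by its Ensembl identifier, ENSMUSG00000068854, while the other 9 were matched by symbol. All 10 lay above 3 counts in all 24 libraries and passed the filter on low counts in every comparison.

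Whole olfactory epithelium (OE) was taken from untreated *WT* and *iRhom2-/-* mice of a mixed 129Sv and C57BL/6 background after euthanasia with CO2, and polyadenylated RNA was sequenced in bulk. The *iRhom2-/-* mice carry the allele Rhbdf2 tm1b(KOMP)Wtsi in the whole body, which leaves LacZ under the promoter of the endogenous gene *Rhbdf2*. There were 3 *WT* and 3 *iRhom2-/-* mice of 8 weeks, 3 and 3 of 10 weeks, and 6 and 6 in a set of 5 and 30 weeks, with 3 mice per genotype at each of these ages. The names of the columns of this last set give the genotype but not the age, so its libraries are called by their column number, 7 to 12, and the age of each is not known. Of the mice of 8 weeks, 1 *WT* mouse was female and the other 5 mice were male. At 10 weeks 1 mouse of each genotype was female, and the mice of 5 and 30 weeks were male. The sample labels give each of these 3 sets a core reference number of its own, without saying what it marks, so age and what this number marks cannot be told apart between sets, and genotypes are compared within sets. Whether mice came from separate litters is not given in the sources used here, so p-values measure the spread between these samples.

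Between 25333822 and 48660394 counts per library fell on genes. *Rhbdf2*, the gene of iRhom2, was at 19.3 to 25.1 counts per 1000000 (CPM, after TMM scaling of the libraries) in *WT* and at 7.06 to 13.5 CPM in *iRhom2-/-*, without overlap in the 24 libraries. In 1 library, *iRhom2-/-* mouse 2 of 10 weeks, the secreted protein gene *Bpifb9b* took 13.6% of the counts, and in *WT* mouse 1 of 8 weeks it took 5.53%. Mitochondrial transcripts made up 4.90 to 8.95% of the counts of the *WT* mice of 10 weeks and 3.41 to 3.93% of those of the *iRhom2-/-* mice of that age, and between 2.93 and 5.04% elsewhere. The OSN marker *Omp* was abundant in all libraries, from 3802 to 8300 CPM.

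Per kilobase of exon, which allows levels of different genes to be set side by side, *Hist2h2be* was the most abundant of the 10 genes, with a median of 217 CPM per kb in *WT* and 236 in *iRhom2-/-*. *Ier2* followed at 39.9 and 49.05 CPM per kb, then *Nr4a1* at 22.5 and 12.1, *Dusp1* at 17.7 and 19.7 and *Junb* at 10.6 and 10.1. *Fos*, at 4.96 and 5.13 CPM per kb, *Egr1*, at 3.47 and 3.50, *Arc*, at 1.53 and 1.09, *Fosb*, at 0.512 and 0.352, and *Npas4*, at 0.314 and 0.289, were the lowest. Over the 12 libraries of *WT* the range of *Hist2h2be*, 184 to 240 CPM per kb, did not overlap that of *Ier2*, 26.4 to 55.3. All other neighbours in this order overlapped in their *WT* ranges, which span 3 sets. Within libraries, 5 of the 9 neighbouring pairs stood in this order in all 12 *WT* mice. The exceptions were *Nr4a1*, which was above *Dusp1* in 7 of 12 *WT* and in 2 of 12 *iRhom2-/-* libraries, *Fos*, above *Egr1* in 10 of 12 *WT* libraries, and *Arc* above *Fosb* and *Fosb* above *Npas4*, each in 11 of 12. In bulk RNA, a lower level cannot be told apart from fewer cells that express the gene.

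**Figure D1:**
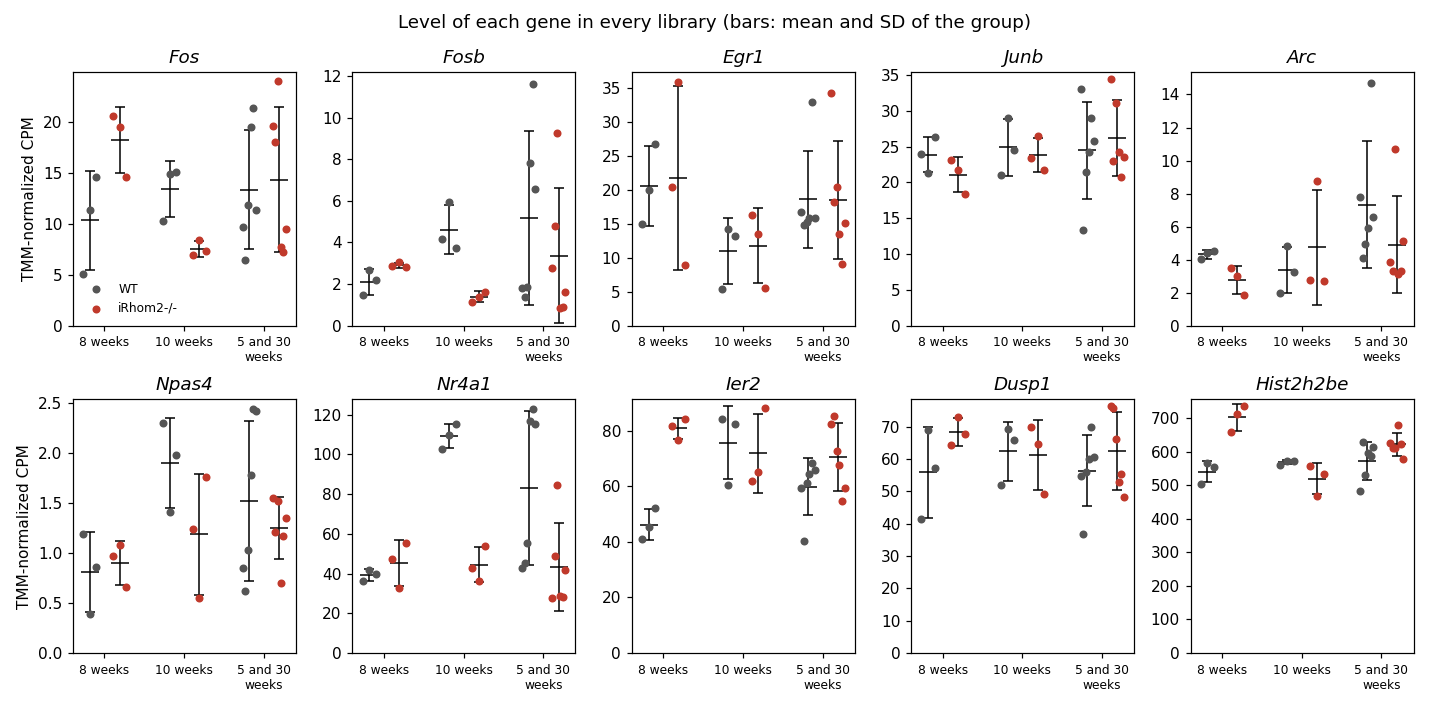
TMM-normalized CPM (y axis, from 0) of the 10 genes in each of the 24 libraries, by set (x axis) and genotype (grey *WT*, red *iRhom2-/-*). Points are libraries and bars are the group mean with its SD (n = 3 at 8 and at 10 weeks, n = 6 at 5 and 30 weeks). *Ier2* and *Hist2h2be* of *iRhom2-/-* lay above *WT* at 8 weeks, and *Fos*, *Fosb* and *Nr4a1* of *iRhom2-/-* lay below *WT* at 10 weeks.

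None of the 10 genes passed the test between genotypes over all 24 mice (edgeR's quasi-likelihood test with set as a term, Benjamini-Hochberg adjusted p under 0.1 over 20763 genes). Of all genes tested, 410 did, which is 1.97%, with 1.12% higher in *iRhom2-/-* and 0.852% lower. Over the 10 genes, 5 log2 fold changes were positive and 5 were negative, with a median of 0.01 against -0.0011 over all genes tested, and 2 genes, *Nr4a1* and *Ier2*, had an unadjusted p under 0.05 (12.4% of all genes did). Within sets, 2 of the 10 genes were called at 8 weeks, *Ier2* and *Hist2h2be*, both higher in *iRhom2-/-*, where 4.98% of all genes were called, 3.24% higher and 1.74% lower. At 10 weeks 1 gene was called, *Nr4a1*, lower in *iRhom2-/-*, where 0.112% of all genes were called lower and 0.0853% higher. At 5 and 30 weeks none of the 10 was called by edgeR or DESeq2, where edgeR called 1.07% of all genes, 0.649% higher and 0.422% lower. An unadjusted p under 0.05 was found for 3 of the 10 genes at 8 weeks (19.8% of all genes), for 3 at 10 weeks (7.79%) and for 1, *Nr4a1*, at 5 and 30 weeks (14.2%).

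**Figure D2:**
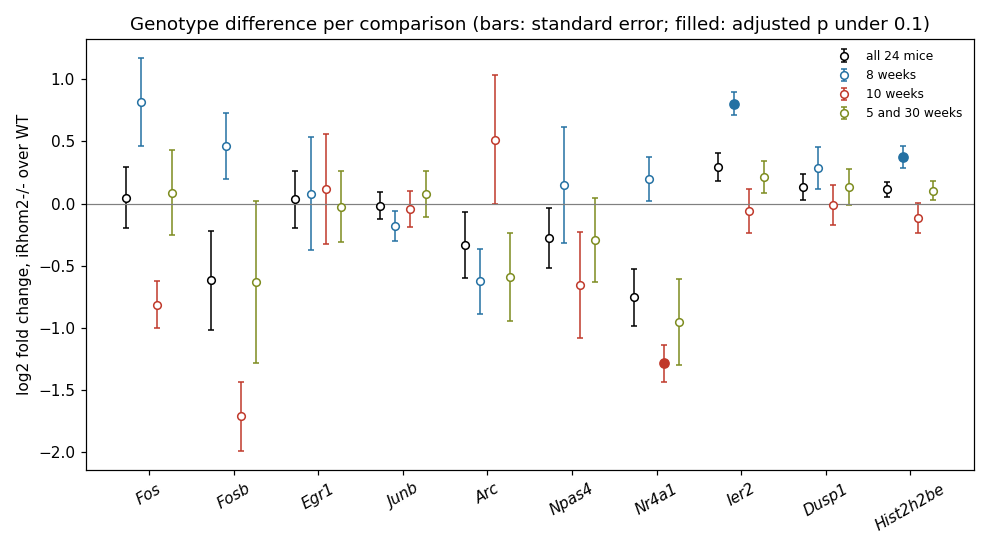
Log2 fold change of *iRhom2-/-* over *WT* (y axis) for each of the 10 genes (x axis) over all 24 mice and within each set, from edgeR's quasi-likelihood test. Bars are standard errors, and filled points have an adjusted p under 0.1: *Ier2* and *Hist2h2be* at 8 weeks and *Nr4a1* at 10 weeks.

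The sequences before the transcription start are shown for the AP-1 genes *Fos* and *Fosb*, for *Nr4a1* and for *Dusp1*, since *Nr4a1* passed the test within a set, *Fos* and *Fosb* separated the genotypes in the same mice and *Dusp1* was the gene with the complete CRE. They are the 250 bases before the start in RefSeq on GRCm38.p6: chr12:85473640-85473889 on the plus strand for *Fos*, chr7:19310046-19310295 on the minus strand for *Fosb*, chr15:101266596-101266845 on the plus strand for *Nr4a1* and chr17:26508473-26508722 on the minus strand for *Dusp1*. Each is written 5′ to 3′ on the strand of the gene, and capitals mark the core of the CRE, TGACG, or its reverse complement CGTCA.
Fos promoter: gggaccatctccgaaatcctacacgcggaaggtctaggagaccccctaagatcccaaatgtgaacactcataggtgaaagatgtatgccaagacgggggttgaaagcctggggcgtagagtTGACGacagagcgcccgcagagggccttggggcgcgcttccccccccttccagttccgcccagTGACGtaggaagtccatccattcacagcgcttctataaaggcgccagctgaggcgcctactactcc
Fosb promoter: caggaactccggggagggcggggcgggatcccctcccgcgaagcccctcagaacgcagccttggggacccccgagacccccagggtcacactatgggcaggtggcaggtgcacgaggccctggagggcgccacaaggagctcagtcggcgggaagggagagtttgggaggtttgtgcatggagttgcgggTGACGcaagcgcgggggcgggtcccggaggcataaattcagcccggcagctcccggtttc
Nr4a1 promoter: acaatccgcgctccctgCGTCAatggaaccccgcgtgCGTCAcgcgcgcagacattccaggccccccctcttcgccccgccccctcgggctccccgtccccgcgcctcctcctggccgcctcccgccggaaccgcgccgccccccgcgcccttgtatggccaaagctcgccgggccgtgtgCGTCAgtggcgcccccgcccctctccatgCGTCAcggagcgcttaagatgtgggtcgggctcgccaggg
Dusp1 promoter: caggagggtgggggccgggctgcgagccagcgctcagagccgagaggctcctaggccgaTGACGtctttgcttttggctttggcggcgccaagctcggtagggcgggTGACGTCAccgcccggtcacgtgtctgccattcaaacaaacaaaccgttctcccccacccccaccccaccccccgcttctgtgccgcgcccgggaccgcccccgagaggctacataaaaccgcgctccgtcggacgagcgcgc
Of the 10 genes, 6 had a promoter in the reference table that could be used here (these 4, *Junb* and *Npas4*), and all 6 held the CRE core on at least 1 strand. The core occurs in 17.8% of the 32851 promoters of this length in the table. The promoter of *Nr4a1* held 4 copies, at 233, 213, 69 and 40 bases before the start, and that of *Fos* held 2, at 129 and 66 bases before it. The full palindromic CRE, TGACGTCA, which contains the core on both strands, was in 1 of the 6, *Dusp1*, at 143 bases before the start, and in 1.55% of all promoters. The CArG box was in none of these 6 windows and in 1.47% of all. Sequence farther than 250 bases before the start was not searched, and *Egr1*, *Arc*, *Ier2* and *Hist2h2be* were not among the 6. The absence of a match here thus does not show that a gene lacks the site. The matches given are matches of letters and do not show binding.

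*Fos* and *Fosb*, which encode subunits of the transcription factor AP-1, had log2 fold changes of opposite sign in the 2 sets of 3 against 3 mice. None of these passed edgeR's quasi-likelihood test. At 8 weeks *Fos* was at 5.09, 11.4 and 14.6 CPM in *WT* mice 1 to 3 and at 20.6, 19.5 and 14.6 CPM in *iRhom2-/-* mice 1 to 3. The genotypes did not overlap, although the lowest *iRhom2-/-* library, at 14.62 CPM, lay barely above the highest *WT* library, at 14.60 CPM. At 10 weeks *Fos* was at 10.3, 15.0 and 15.1 CPM in *WT* and at 6.91, 8.44 and 7.33 CPM in *iRhom2-/-*, all *iRhom2-/-* values being below all *WT* values. The log2 fold change of *Fos* was 0.82 (SE 0.35) at 8 weeks (edgeR adjusted p = 0.254) and -0.81 (SE 0.19) at 10 weeks (edgeR adjusted p = 0.349). Neither passed the threshold with edgeR's quasi-likelihood test. DESeq2 called both (adjusted p = 0.0773 at 8 weeks and 0.0189 at 10 weeks), and edgeR's likelihood ratio test called the value of 10 weeks (adjusted p = 0.0684). The genotypes overlapped widely at 5 and 30 weeks, with *Fos* at 6.44 to 21.4 CPM (median 11.7) in *WT* and at 7.28 to 24.01 CPM (median 13.8) in *iRhom2-/-*, a log2 fold change of 0.09 (SE 0.34). Over all 24 mice the log2 fold change of *Fos* was 0.05 (SE 0.24, adjusted p = 0.967), and *iRhom2-/-* libraries lay above the *WT* mean of their set in 6 of 12 cases.

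*Fosb* was at 1.46, 2.66 and 2.21 CPM in the *WT* mice of 8 weeks and at 2.85, 3.06 and 2.83 CPM in the *iRhom2-/-* mice. At 10 weeks it was at 4.19, 5.94 and 3.73 CPM in *WT* and at 1.13, 1.40 and 1.64 CPM in *iRhom2-/-*. The genotypes overlapped in neither set, with *iRhom2-/-* above *WT* at 8 weeks and below it at 10 weeks. Of the 10 genes, 4 had all *iRhom2-/-* values above *WT* at 8 weeks and 1 had them all below, as had 15.4 and 11.6% of all genes (27% together). At 10 weeks 0 had them above and 4 below, as had 6.12 and 7.11% (13.2% together). The log2 fold change of *Fosb* was 0.46 (SE 0.27, adjusted p = 0.379) at 8 weeks and -1.71 (SE 0.28, adjusted p = 0.129) at 10 weeks. Without *iRhom2-/-* mouse 3 of 10 weeks the latter was -1.86 and passed the threshold (edgeR adjusted p = 0.0881), and DESeq2 (adjusted p = 4.84e-05) and edgeR's likelihood ratio test (adjusted p = 0.00027) called it with all 6 mice. *Fosb* of the set of 5 and 30 weeks ranged from 1.41 to 11.6 CPM (median 4.23) in *WT* and from 0.836 to 9.27 CPM (median 2.19) in *iRhom2-/-*. Libraries of either genotype lay at both ends of this range, and the log2 fold change was -0.63 (SE 0.65, adjusted p = 0.710).

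*Nr4a1*, which encodes an orphan nuclear receptor, was the member with the largest difference that passed the test, at 10 weeks. It was at 103, 110 and 115 CPM in the *WT* mice of 10 weeks and at 43.0, 36.2 and 53.7 CPM in the *iRhom2-/-* mice. The lowest *WT* value was nearly 2 times the highest *iRhom2-/-* value, and the log2 fold change was -1.29 (SE 0.15, a fold of 0.410, edgeR adjusted p = 0.0263). Leaving out any 1 of the 3 *WT* mice ended the call, with log2 fold changes of -1.33 without mouse 1, -1.29 without mouse 2 and -1.25 without mouse 3 and adjusted p of 0.104, 0.144 and 0.160. Without an *iRhom2-/-* mouse it held.

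At 8 weeks *Nr4a1* was at 36.3, 42.0 and 39.7 CPM in *WT* and at 47.5, 32.7 and 55.5 CPM in *iRhom2-/-*, with a log2 fold change of 0.20 (SE 0.18, adjusted p = 0.571). These levels overlapped those of the *iRhom2-/-* mice of 10 weeks, while the *WT* mice of 10 weeks lay above all 9. At 5 and 30 weeks *Nr4a1* was at 42.6, 45.2, 55.3, 117, 123 and 115 CPM in *WT* libraries 7 to 12 and at 27.5, 48.8, 84.6, 28.6, 28.0 and 41.6 CPM in *iRhom2-/-* libraries 7 to 12. *WT* libraries 10 to 12 lay above all *iRhom2-/-* libraries, and *WT* libraries 7 to 9 lay within their range. The log2 fold change was -0.95 (SE 0.34, adjusted p = 0.247). Over all 24 mice it was -0.75 (SE 0.23, a fold of 0.593, adjusted p = 0.122), with 9 of 12 *iRhom2-/-* libraries below the *WT* mean of their set. This value passed the threshold without *WT* mouse 1 of 8 weeks (adjusted p = 0.0972), without *iRhom2-/-* mouse 3 of 8 weeks (0.0853) or without *iRhom2-/-* library 9 (0.0469), and with DESeq2 (0.0613) and edgeR's likelihood ratio test (0.0515). *Nr4a1* lies on chromosome 15 (chr15:101254269-101274795, plus strand). None of the 53 other genes tested within 1000000 bases of it was called over all 24 mice by edgeR. Around *Arc*, also on chromosome 15, 2 of 32 were called over all 24 mice and 4 of 29 at 8 weeks, as were 1.97 and 4.98% of all genes. Around no other of the 10 genes was more than 1 called over all 24 mice.

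*Ier2*, a short nuclear protein gene without introns that is induced by growth factors, was higher in *iRhom2-/-* at 8 weeks (chr8:84661331-84662852, minus strand). It was at 41.1, 45.4 and 52.2 CPM in *WT* and at 81.7, 76.7 and 84.2 CPM in *iRhom2-/-*. The genotypes did not overlap, and the log2 fold change was 0.80 (SE 0.09, a fold of 1.75, edgeR adjusted p = 0.0161). Without *iRhom2-/-* mouse 3 the log2 fold change was 0.76 and the adjusted p 0.104, and without each of the other 5 mice the call held. At 10 weeks *Ier2* was at 84.2, 60.5 and 82.5 CPM in *WT* and at 62.0, 65.2 and 88.3 CPM in *iRhom2-/-*, so the genotypes overlapped (log2 fold change -0.06, SE 0.18). The *WT* mice of 8 weeks thus lay below the other 9 mice of 8 and 10 weeks. The medians at 5 and 30 weeks were 62.8 CPM in *WT*, with a range of 40.2 to 68.4, and 70.1 CPM in *iRhom2-/-*, with a range of 54.7 to 85.4 (log2 fold change 0.22, SE 0.13). Over all 24 mice the log2 fold change was 0.29 (SE 0.11, adjusted p = 0.258), with 8 of 12 *iRhom2-/-* libraries above the *WT* mean of their set.

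*Dusp1*, which encodes a phosphatase that inactivates MAP kinases, was at 41.3, 69.0 and 57.1 CPM in *WT* and at 64.2, 72.9 and 67.7 CPM in *iRhom2-/-* at 8 weeks. The log2 fold change was 0.29 (SE 0.17, adjusted p = 0.385) there, -0.01 (SE 0.16) at 10 weeks, 0.13 (SE 0.14) at 5 and 30 weeks and 0.13 (SE 0.10) over all 24 mice. *Junb*, an AP-1 subunit that pairs with Fos proteins, was called in no set by edgeR. It lay between 13.3 and 34.4 CPM in the 24 libraries, with log2 fold changes of -0.18 (SE 0.12) at 8 weeks, -0.04 (SE 0.15) at 10 weeks and 0.08 (SE 0.19) at 5 and 30 weeks. *Junb* overlaps *Prdx2* on the opposite strand in the annotation, and *Dusp1* overlaps *Ergic1* and the pseudogene *Gm8225* on the opposite strand. On its own strand *Dusp1* spans a processed pseudogene, *AC122252.4*, and a sense intronic transcript, *AC122252.1*. The library kit kept strand, which does not separate these last 2 from *Dusp1*, but no 100-base stretch of any of the 10 genes' transcripts occurred in a transcript of another gene.

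*Egr1*, a zinc finger transcription factor, *Arc*, a synaptic protein gene, and *Npas4*, a transcription factor made almost only in neurons after activity, varied from mouse to mouse within groups. *Egr1* was at 15.0, 20.045 and 26.8 CPM in the *WT* mice of 8 weeks and at 20.4, 35.9 and 8.95 CPM in the *iRhom2-/-* mice. At 10 weeks it was at 5.40, 14.2 and 13.3 CPM in *WT* and at 16.3, 13.5 and 5.63 CPM in *iRhom2-/-*. The spread within a genotype exceeded the difference between genotypes in both sets, and the log2 fold change over all 24 mice was 0.03 (SE 0.23).

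*Arc* was at 4.01, 4.40 and 4.54 CPM in the *WT* mice of 8 weeks and at 3.50, 3.04 and 1.86 CPM in the *iRhom2-/-* mice. The genotypes did not overlap, and the log2 fold change of -0.63 (SE 0.26) did not pass the threshold (edgeR adjusted p = 0.245). At 10 weeks *Arc* was at 2.01, 4.82 and 3.26 CPM in *WT* and at 2.76, 8.77 and 2.71 CPM in *iRhom2-/-*. The high value was that of *iRhom2-/-* mouse 2, the library with 13.6% of its counts from *Bpifb9b*. The log2 fold change there was 0.51 (SE 0.52), and without that mouse it was -0.29. *Arc* ranged at 5 and 30 weeks from 4.11 to 14.7 CPM (median 6.25) in *WT* and from 3.13 to 10.7 CPM (median 3.60) in *iRhom2-/-*, a log2 fold change of -0.59 (SE 0.36, adjusted p = 0.478). Over all 24 mice it was -0.34 (SE 0.26, adjusted p = 0.680), and 10 of 12 *iRhom2-/-* libraries lay below the *WT* mean of their set.

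*Npas4* was the lowest of the 10 genes, with 15 to 76 counts per library. It was at 1.19, 0.394 and 0.859 CPM in *WT* and at 0.971, 1.08 and 0.657 CPM in *iRhom2-/-* at 8 weeks. At 10 weeks it was at 2.30, 1.41 and 1.98 CPM in *WT* and at 1.25, 0.553 and 1.77 CPM in *iRhom2-/-*. The genotypes overlapped in both sets, and the log2 fold change over all 24 mice was -0.28 (SE 0.24, adjusted p = 0.718).

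The scatter of replicates differed between the 10 genes. Over the 12 mice of 8 and 10 weeks, edgeR's biological coefficient of variation, the relative SD between mice beyond counting error, was 0.428 for *Egr1*, 0.396 for *Arc* and 0.387 for *Npas4*. It was 0.271 for *Fos* and 0.251 for *Fosb*, and it lay between 0.128 (*Hist2h2be*) and 0.166 (*Dusp1*) for the other 5 genes. The median over all genes was 0.173, so *Fos*, *Fosb*, *Egr1*, *Arc* and *Npas4* varied more than the median gene and the other 5 varied less.

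*Hist2h2be* was higher in *iRhom2-/-* at 8 weeks. It was at 504, 566 and 553 CPM in *WT* and at 658, 712 and 737 CPM in *iRhom2-/-*, without overlap, and the log2 fold change was 0.37 (SE 0.09, a fold of 1.30, edgeR adjusted p = 0.0913). The call was lost without *WT* mouse 1, 2 or 3 or without *iRhom2-/-* mouse 2 or 3, with adjusted p from 0.134 to 0.317, and held without *iRhom2-/-* mouse 1 (adjusted p = 0.0892). At 10 weeks it was at 562, 573 and 572 CPM in *WT* and at 556, 467 and 535 CPM in *iRhom2-/-*. The *iRhom2-/-* values were all lower here, the lowest being that of mouse 2, and the log2 fold change was -0.12 (SE 0.12, adjusted p = 0.883). In the set of 5 and 30 weeks it ranged from 483 to 629 CPM (median 591) in *WT* and from 578 to 681 CPM (median 617) in *iRhom2-/-*. The genotypes overlapped, all 6 *iRhom2-/-* libraries lay above the *WT* mean, and the log2 fold change was 0.10 (SE 0.08, adjusted p = 0.594). Over all 24 mice the log2 fold change was 0.12 (SE 0.06, adjusted p = 0.465).

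The markers of mature OSNs moved with *Hist2h2be* at 8 weeks. All 10 markers listed had positive log2 fold changes there, with a median of 0.49 against -0.0013 over all genes tested. Of them 3 were called, where 3.24% of all genes were called higher. These 3 were the transduction channel genes *Ano2*, *Cnga2* and *Cnga4*, which were chosen after their values were seen. Their summed level ranged from 9859 to 11990 CPM in the *WT* mice of 8 weeks and from 14290 to 17771 CPM in the *iRhom2-/-* mice. *Omp*, the olfactory marker protein gene, was at 3802 to 4832 CPM in *WT* and at 5781 to 7639 CPM in *iRhom2-/-* (log2 fold change 0.62, SE 0.17, adjusted p = 0.112). Set against the mean log2 CPM of the 10 markers, *Hist2h2be* of *iRhom2-/-* was not higher at 8 weeks. The log2 ratio differed by -0.08 (exact permutation test, two-sided, p = 0.2, where 3 against 3 mice cannot go below 0.1). It differed by 0.02 at 10 weeks (exact permutation p = 0.7) and by 0.04 at 5 and 30 weeks (exact permutation p = 0.742). Relative to *Omp* alone the log2 ratio at 8 weeks differed by -0.25, all *iRhom2-/-* values being lower (exact permutation p = 0.1). With the level of *Omp* as a covariate, an alternative chosen after seeing the data, the log2 fold change of *Hist2h2be* at 8 weeks was 0.11 (adjusted p = 0.907), that of *Ier2* was 0.54 (adjusted p = 0.693), and 23 of 19335 genes were called in place of 962. As *Omp* did not overlap between the genotypes there, its level and genotype cannot be told apart in these 6 mice, and the loss of the calls in this fit is no measure of the part of *Omp*.

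**Figure D3:**
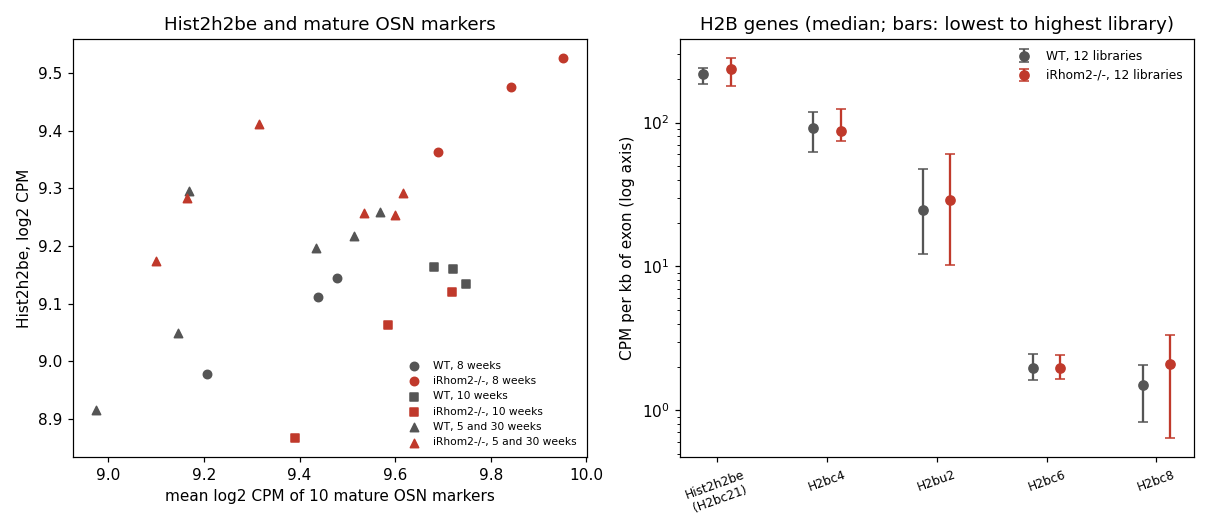
Left, log2 CPM of *Hist2h2be* (y axis) against the mean log2 CPM of 10 mature OSN markers (x axis) in the 24 libraries, with symbols for set and colours for genotype. Of the 3 *iRhom2-/-* mice of 8 weeks (red circles), 2 were highest of all libraries in both. Right, CPM per kb of exon (log axis) of the 5 H2B genes with the highest mean CPM, as median (point) and range (bar) over 12 libraries per genotype. In this polyadenylated RNA *Hist2h2be* lay above the other 4.

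Of the 18 H2B genes in the table, *Hist2h2be* accounted for 64.2% of the summed CPM per kb in polyadenylated RNA. Transcripts without a poly(A) tail are largely missed by these libraries, so this is not its share of all H2B transcripts. *H2bc4* followed with a median of 91.0 CPM per kb in *WT* and 87.2 in *iRhom2-/-*, and *H2bu2* with 24.5 and 29.1. *H2bc4* had a log2 fold change of 0.07 at 8 weeks (adjusted p = 0.752), and *H2bu2* one of 0.29 (adjusted p = 0.290). Of the 6 H2B genes tested at 8 weeks, *Hist2h2be* was the 1 that was called. Over all 24 mice none of 7 was called by edgeR, and none had an unadjusted p under 0.05. The gene is at chr3:96221119-96223738 on the plus strand.

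Whether the genotype difference changed between sets was tested with interaction terms over all 24 mice. None of the 10 genes passed the adjusted threshold, which 0.0482% of all genes did. The smallest p were those of *Hist2h2be* (edgeR unadjusted 0.00532, adjusted 0.260), *Ier2* (unadjusted 0.00797, adjusted 0.275), *Nr4a1* (unadjusted 0.0297, adjusted 0.347) and *Fos* (unadjusted 0.0475, adjusted 0.387). For the contrast of 10 with 8 weeks alone none passed either, as 0.0771% of all genes did. An unadjusted p under 0.05 over the 3 sets was found for these 4 of the 10 genes and for 12.7% of all genes. The opposite directions at 8 and 10 weeks are thus values of 2 sets, and a difference between the sets was not shown for any of the 10 genes.

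In deviations from group means, 7 of the other 9 genes correlated with *Fos* past an adjusted p of 0.05. *Npas4* and *Hist2h2be* did not. Deviations of log2 CPM from the mean of each group were compared with those of *Fos* over 24 libraries. The p-values of the 9 relations come from permutations within groups with Benjamini-Hochberg adjustment. These permutations treat the libraries of a group as exchangeable, which may not hold in the groups that mix ages. The p-values thus do not separate differences of age from covariation between mice of the same age. *Fosb* had the highest correlation with *Fos*, with r = 0.83 (permutation, adjusted p = 0.00054) and rho = 0.83 (adjusted p = 0.00108). *Dusp1* had r = 0.78 (permutation, adjusted p = 0.00168) and rho = 0.74 (adjusted p = 0.00375), and *Egr1* r = 0.62 (permutation, adjusted p = 0.000675) and rho = 0.65 (adjusted p = 0.00198). *Ier2*, *Nr4a1*, *Junb* and *Arc* followed with r of 0.62, 0.59, 0.58 and 0.55 and rho of 0.59, 0.59, 0.54 and 0.53 (permutation, adjusted p from 0.00592 to 0.0278 over both measures). *Npas4* had r = 0.33 and rho = 0.32 (permutation, adjusted p = 0.193 and 0.205). *Hist2h2be* had r = 0.003 and rho = -0.03 (permutation, adjusted p = 0.992 and 0.905).

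Without the 2 libraries farthest from the median of *Fos*, *WT* mouse 1 of 8 weeks and *WT* library 8, r was 0.83 for *Fosb*, 0.68 for *Dusp1* and 0.63 for *Egr1*, and between 0.50 and 0.55 for *Ier2*, *Nr4a1*, *Junb* and *Arc*. Within sets, *Fosb* had r of 0.82 at 8 weeks, 0.28 at 10 weeks and 0.91 at 5 and 30 weeks. *Nr4a1* had r of 0.01, -0.03 and 0.72 in that order, and *Ier2* 0.74, -0.37 and 0.80, so the relation of *Fos* with *Nr4a1* was seen at 5 and 30 weeks alone and that with *Ier2* not at 10 weeks. The groups of 5 and 30 weeks mix 2 ages, and the part of age in these relations and in their p-values was not tested. Over all genes tested, the 5 whose deviations were most like those of *Fos* were *Nat8f2* (r = 0.89), *Skor1* (0.88), *Mettl7a1* (0.88), *Sspo* (0.86) and *Agmo* (0.86). Those most like *Hist2h2be* were *Prps1* (r = 0.84), *Nfx1* (0.83), *Pkia* (0.82), the odorant receptor gene *Olfr671* (0.82) and *Glb1l2* (0.81). These are descriptions over 24 libraries that share depth, group composition and, at 5 and 30 weeks, the mixed ages.

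**Figure D4:**
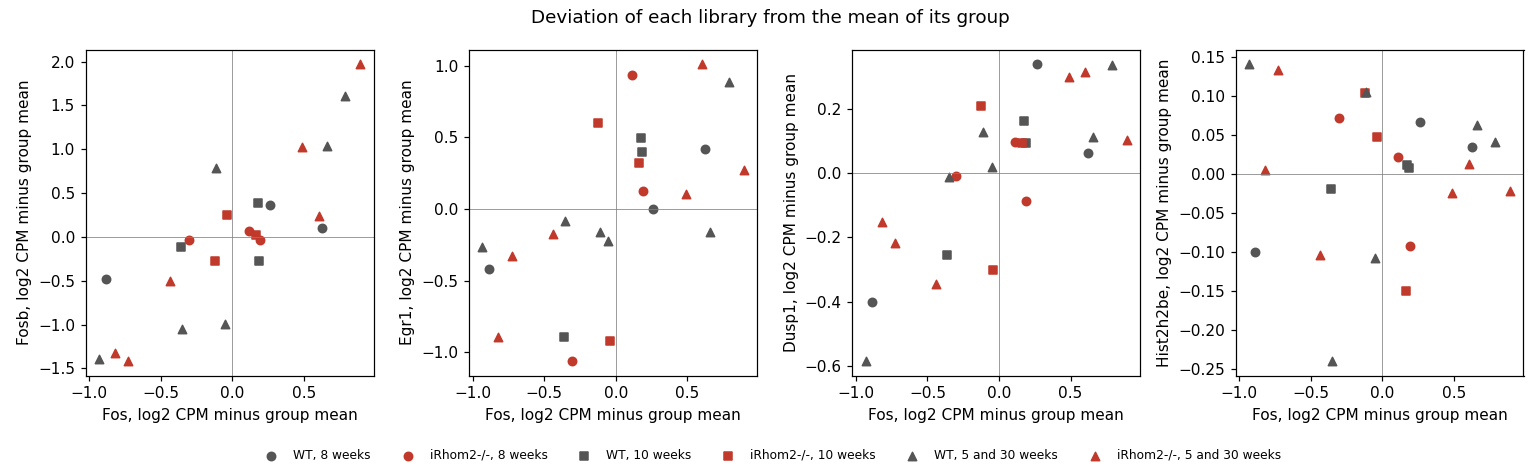
Deviation of log2 CPM from the group mean for *Fosb*, *Egr1*, *Dusp1* and *Hist2h2be* (y axes) against that of *Fos* (x axes) in the 24 libraries, with symbols for set and colours for genotype. Pearson's r was 0.83, 0.62, 0.78 and 0.003.

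Genes of the heat shock response, which tissue stress induces, were read in the same libraries. *Hspa1b*, an inducible HSP70 gene chosen after its values were seen, was at 40.4, 59.5 and 19.7 CPM in the *WT* mice of 10 weeks and at 9.59, 8.85 and 13.6 CPM in the *iRhom2-/-* mice. The genotypes did not overlap, as for *Nr4a1*, *Fos* and *Fosb* in these same mice, and the log2 fold change of -1.88 (SE 0.37) did not pass the threshold (edgeR adjusted p = 0.234). At 8 weeks *Hspa1b* was at 14.2 to 18.2 CPM in *WT* and at 10.7 to 15.2 CPM in *iRhom2-/-*, with overlap. At 5 and 30 weeks it was at 13.9, 6.58, 13.6, 23.5, 108 and 23.996 CPM in *WT* libraries 7 to 12 and at 14.1, 44.7, 34.4, 9.75, 11.4 and 10.0 CPM in *iRhom2-/-* libraries 7 to 12. *WT* libraries 10 to 12 were thus highest of *WT* in *Hspa1b*, in *Nr4a1* and in *Fosb* (7.80, 11.6 and 6.58 CPM). *iRhom2-/-* libraries 8 and 9 were highest of *iRhom2-/-* in the same genes, with *Fosb* at 4.79 and 9.27 CPM. Libraries 7 to 12 mix mice of 5 and 30 weeks, the age of each is not known, and the part of age was not tested.

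**Figure D5:**
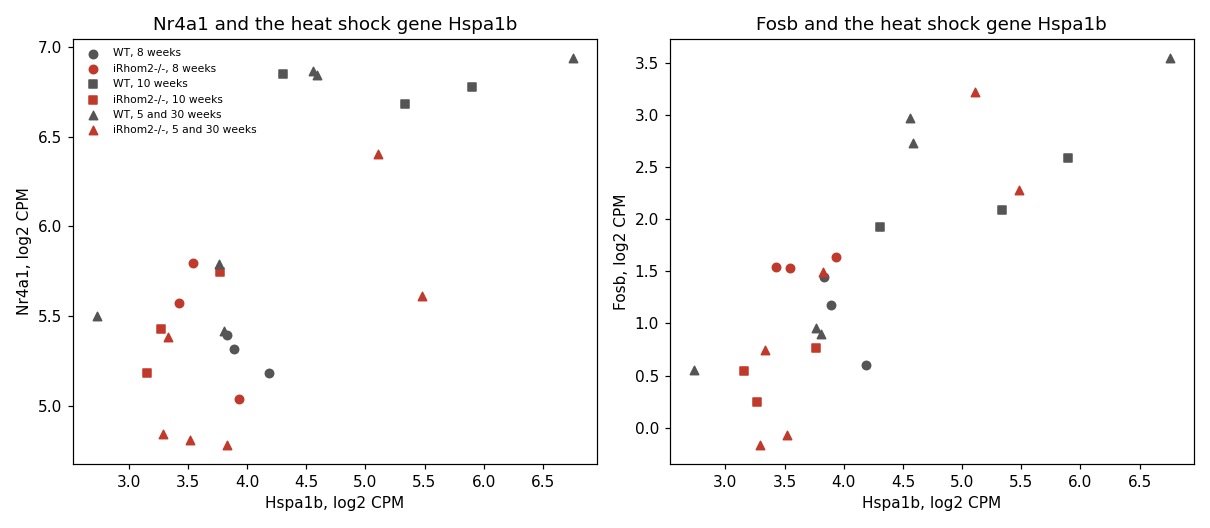
Log2 CPM of *Nr4a1* (left) and *Fosb* (right) on the y axes against log2 CPM of *Hspa1b* (x axes) in the 24 libraries, with symbols for set and colours for genotype. The *WT* mice of 10 weeks (grey squares) lay above the *iRhom2-/-* mice of 10 weeks (red squares) in *Hspa1b*, *Nr4a1* and *Fosb*.

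Of 15 heat shock genes, 14 had negative log2 fold changes over all 24 mice, with a median of -0.20. With edgeR 6 had an unadjusted p under 0.05 (12.4% of all genes). Of the 15, 1 was called by edgeR, *Hsph1*, which encodes a co-chaperone of HSP70 (log2 fold change -0.48, SE 0.13, adjusted p = 0.0782), where 0.852% of all genes were called lower. The summed level of the 15 genes, in which constitutive members weigh most, overlapped between genotypes at 10 weeks. It ranged from 5858 to 7185 CPM in *WT* and from 4995 to 7638 CPM in *iRhom2-/-* there. With the mean log2 CPM of these 15 genes as a covariate, the log2 fold change of *Nr4a1* over all 24 mice was -0.36 (SE 0.17, adjusted p = 0.304) and that of *Fosb* turned to 0.14 (SE 0.26). *Ier2* then passed the threshold (log2 fold change 0.43, SE 0.11, edgeR adjusted p = 0.0618). Within 10 weeks, with the same covariate chosen after seeing the data, *Nr4a1* was at -1.12 (SE 0.20, adjusted p = 0.446) and *Fosb* at -1.36 (SE 0.38). Within 8 weeks *Ier2* was at 0.85 (SE 0.12, adjusted p = 0.112). Genotype and heat shock level cannot be told apart where they differ without overlap, as for *Hspa1b* at 10 weeks. Over all 24 mice 14 of the 15 genes of the covariate were lower in *iRhom2-/-*, so the covariate holds part of any genotype difference. The changes in these fits are thus no measure of the part of stress, which was not tested. At 8 weeks, where *Ier2* and *Hist2h2be* were called, 8 heat shock genes had positive and 7 negative log2 fold changes, and *Hsph1* was called lower (-0.44, SE 0.10, edgeR adjusted p = 0.078). At 10 weeks 13 of the 15 were negative, with a median of -0.25, and edgeR called none, while 5 had an unadjusted p under 0.05 (7.79% of all genes). At 5 and 30 weeks all 15 were negative, with a median of -0.26, and edgeR called none, while 7 had an unadjusted p under 0.05 (14.2% of all genes). Of 17 hypoxia genes none was called over all 24 mice by edgeR, and 1 had an unadjusted p under 0.05 (12.4% of all genes). The smallest p in each direction were those of *P4ha1*, a collagen hydroxylase gene (log2 fold change -0.22, SE 0.06, adjusted p = 0.104), and *Mt2*, a metallothionein gene (0.16, SE 0.09). At 8 weeks 1 of the 17 was called, *Hk2*, a hexokinase gene named after its values were seen, which was lower in *iRhom2-/-* (-0.60, SE 0.10, edgeR adjusted p = 0.0449). Of all genes, 1.74% were called lower there.

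No further gene of the response passed the test over all 24 mice. Of 41 further immediate early genes, 12 had positive and 29 negative log2 fold changes, with a median of -0.10. None was called by edgeR at an adjusted p under 0.1, while 11 had an unadjusted p under 0.05 (12.4% of all genes). *Jund*, an AP-1 subunit, had the smallest p of those that were positive (log2 fold change 0.26, SE 0.07, adjusted p = 0.103). *Crem*, a CRE-binding factor gene, had the smallest p of those that were negative (-0.24, SE 0.08, adjusted p = 0.161). At 8 weeks 4 of the 41 were called, where 4.98% of all genes were (3.24% higher and 1.74% lower). These 4 were named after their values were seen. They were *Ier5*, a relative of *Ier2* (0.68, SE 0.09), the ERK phosphatase gene *Dusp5* (0.66, SE 0.12) and the synaptic pentraxin gene *Nptx2* (0.85, SE 0.17), which were higher in *iRhom2-/-*, and the transcription factor gene *Klf6* (-0.33, SE 0.07), which was lower. None was called at 10 weeks or at 5 and 30 weeks by edgeR, where 10 and 6 had an unadjusted p under 0.05 (7.79 and 14.2% of all genes). Of 18 upstream kinases, cofactors and transcription factors none was called over all 24 mice by edgeR and 4 had an unadjusted p under 0.05 (12.4% of all genes). The smallest p were those of *Mef2a*, a calcium-regulated transcription factor gene (0.16, SE 0.05, adjusted p = 0.109), and, in the other direction, *Crem*.

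*S100a5*, *Dlg2*, *Pcp4l1*, *Kirrel2* and *Lrrc3b* are activity genes of OSNs. They were taken from the study, which drew them from public single-cell data of OSNs and also read them in these samples, and their direction here was known when the list was made. All 5 had negative log2 fold changes over all 24 mice, with a median of -0.40. By edgeR 1 was called, *Dlg2*, a synaptic scaffold gene (log2 fold change -0.68, SE 0.14, adjusted p = 0.014), and 3 had an unadjusted p under 0.05 (12.4% of all genes). At 10 weeks 4 were negative and 1 positive, none was called, and 2 had an unadjusted p under 0.05 (7.79% of all genes). In the set of 5 and 30 weeks 4 of the 5 were called lower in *iRhom2-/-*, as were 0.422% of all genes. The calcium-binding protein gene *S100a5* was at 798 to 1233 CPM in *WT* and at 549 to 765 CPM in *iRhom2-/-*, without overlap (log2 fold change -0.63, SE 0.13, adjusted p = 0.056). In those same libraries the genotypes overlapped in all 10 genes described here, where 1.86% of all genes did not overlap (1.34% above and 0.519% below). At 8 weeks, where *Ier2* and *Hist2h2be* were called, none of the 5 activity genes was called by edgeR and 1 had an unadjusted p under 0.05, and *S100a5* was at 415 to 909 CPM in *WT* and at 754 to 854 CPM in *iRhom2-/-*.

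Markers of lymphocytes and macrophages were lower in *iRhom2-/-* over all 24 mice, mostly without passing the adjusted threshold, and their direction was not the same in every set. All 10 lymphocyte markers and all 12 macrophage markers had negative log2 fold changes over all 24 mice, with medians of -0.84 and -0.28. Of them 2 were called by edgeR, the macrophage genes *Aif1* (-0.65, SE 0.17, adjusted p = 0.0695) and *Laptm5* (-0.41, SE 0.11, adjusted p = 0.093). Of all genes, 0.852% were called lower. An unadjusted p under 0.05 was found for all 10 lymphocyte and 6 of the 12 macrophage markers (12.4% of all genes). The summed lymphocyte markers ranged from 36.7 to 112 CPM in the *WT* mice of 8 weeks, with the highest value in 1 mouse, and from 18.9 to 31.6 CPM in the *iRhom2-/-* mice, and the summed macrophage markers from 209 to 431 CPM and from 143 to 236 CPM. At 8 weeks all 10 and all 12 were negative, with medians of -1.34 and -0.69. There edgeR called none, while 4 and 3 had an unadjusted p under 0.05 (19.8% of all genes). At 5 and 30 weeks all 10 and all 12 were negative too, with medians of -1.07 and -0.34. In that set edgeR called 1 lymphocyte marker and no macrophage marker, and 0.422% of all genes lower. An unadjusted p under 0.05 was found for 7 and 6 (14.2% of all genes). At 10 weeks, where *Nr4a1* was called, 5 lymphocyte markers were positive and 5 negative (median 0.05), and 9 macrophage markers were positive and 3 negative (median 0.13), with none called by edgeR and 0 and 1 at an unadjusted p under 0.05. All 5 erythrocyte markers were positive at 10 weeks, with a median of 1.16 and none called or at an unadjusted p under 0.05. Their summed level was 1227, 1572 and 630.1 CPM in *WT* mice 1 to 3 and 733, 6117 and 508 CPM in *iRhom2-/-* mice 1 to 3, so the high value was again that of mouse 2. No lymphocyte or macrophage marker was at 0 in all libraries. Immediate early genes are expressed in immune cells too, and their part in the levels given here was not tested.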

How the data were processed

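Bulk RNAseq counts of whole OE from 24 mice were used. The authors ran nf-core, aligned reads with STAR to GRCm38 and estimated counts per gene with RSEM, and the authors' deposited table holds these counts for 45706 genes, rounded to whole numbers and not normalized. Columns with the authors' own fold changes, p-values and FDR between genotypes were not used, and 0 columns of sample values were left out. A total of 12 columns were tied to 1 mouse by name, and 12 to a genotype of the set of 5 and 30 weeks only.

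Counts were analysed with R 4.3.3 and edgeR 4.0.16 (filterByExpr, TMM, quasi-likelihood test, set as a term, Benjamini-Hochberg over all genes tested, threshold 0.1). Every set had a fit of its own, and interaction terms of genotype with set were tested. SEs were derived from the test's F. CPM are TMM-normalized, and log2 CPM used a prior count of 2. Correlations used 100000 permutations. A count of 3 was taken as the limit that a count of 0 allows. All 42 pairs of libraries within groups differed beyond counting error (lowest ratio of chi-square to its degrees of freedom 12.8). The test was checked on simulated counts. Exon lengths and coordinates are from GENCODE M21 on GRCm38 and promoters from RefSeq.

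The 10 genes were named for their function, and they and all lists were chosen with earlier results of these data known. Other genes named are those of each list past the threshold over 24 mice or, where none or more than 3 were, the gene with the smallest p in each direction, with *Rhbdf2*, *Omp*, the 3 H2B genes of highest CPM and the 5 genes most like *Fos* and *Hist2h2be*. Alternatives were DESeq2 1.42.0, RLE scaling, other filters, the likelihood ratio test, a threshold of 0.05, added or dropped covariates, subsets of mice, the replicate number as a block, and each library left out in turn.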

Additional observations from a re-analysis of the deposited data

Results flagged for a closer look

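In the groups of 6 libraries of 5 and 30 weeks, 20 groups of values were examined for a library far from the others, and chance alone would place about 1 in 20 groups past the limit used (a gap of over 0.625 of the range). *Egr1* at 33.0 CPM and *Arc* at 14.7 CPM were both highest in *WT* library 11, the library with the highest *Hspa1b*. *Arc* at 10.7 CPM and *Nr4a1* at 84.6 CPM were both highest in *iRhom2-/-* library 9. *Ier2* at 40.2 CPM was lowest in *WT* library 8, which was also lowest of its group in *Fos*, *Junb* and *Dusp1*. The ages of these libraries are not known, and the part of age was not tested.

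For *Fos*, *Fosb* and *Hist2h2be* every *iRhom2-/-* mouse lay above the *WT* mean at 8 weeks and every one lay below it at 10 weeks. The log2 fold change at 10 weeks minus that at 8 weeks was -1.64 (SE 0.62) for *Fos*, -2.19 (SE 1.07) for *Fosb* and -0.51 (SE 0.14) for *Hist2h2be*. Tested as a contrast of the interaction with edgeR, the adjusted p were 0.340, 0.455 and 0.210, so none passed the threshold of 0.1, which 16 of 20763 genes did.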

How the results depend on the processing

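The number of the 10 genes called moved with the tool. It was 0 over all 24 mice, and 1 (*Nr4a1*) with DESeq2, with the likelihood ratio test or with *Omp* as a covariate, and 1 (*Ier2*) with the heat shock level as a covariate. At 8 weeks it was 2, 3 with DESeq2, which also called *Fos*, 1 (*Ier2*) with RLE scaling, with either other filter, with the likelihood ratio test or at a threshold of 0.05, and 0 with either covariate. At 10 weeks it was 1, and 3 (*Fos*, *Fosb* and *Nr4a1*) with DESeq2 or the likelihood ratio test, 2 without a filter and 0 with the heat shock level. With 1 library left out it ranged from 0 to 1 over all 24 mice, from 0 to 2 at 8 weeks, from 0 to 2 at 10 weeks and stayed at 0 at 5 and 30 weeks. The covariate fits within sets were chosen after seeing the data and leave few degrees of freedom. Other causes of these changes were not tested.

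Log2 fold changes that turned direction were mostly small ones. In the fit of 24 mice *Junb* was 0.023 in males alone, *Fosb*, *Junb* and *Npas4* were 0.14, 0.031 and 0.10 with the heat shock level, and *Fos* was -0.12 with *Omp*. At 8 weeks, with *Omp*, *Fosb*, *Egr1*, *Junb*, *Nr4a1* and *Dusp1* were -0.042, -0.067, 0.029, -0.046 and -0.22. At 10 weeks *Egr1*, *Arc* and *Ier2* were -0.82, -0.31 and 0.060 with the heat shock level, and *Egr1* and *Ier2* were -0.25 and 0.067 with *Omp*. In the set of 5 and 30 weeks *Fosb*, *Egr1* and *Npas4* were 0.24, 0.21 and 0.16 with the heat shock level. With 1 library left out, over all 24 mice *Fos* ranged from -0.067 to 0.13, *Egr1* from -0.089 to 0.15 and *Junb* from -0.081 to 0.030. At 8 weeks *Egr1* ranged from -0.50 to 0.44 and *Npas4* from -0.18 to 0.52. At 10 weeks *Egr1* ranged from -0.22 to 0.44, *Junb* from -0.16 to 0.076, *Arc* from -0.29 to 0.86, *Ier2* from -0.25 to 0.030 and *Dusp1* from -0.13 to 0.11. In the set of 5 and 30 weeks *Fos* ranged from -0.12 to 0.26, *Egr1* from -0.30 to 0.21 and *Junb* from -0.043 to 0.19. *Ier2* and *Hist2h2be* at 8 weeks, *Fos*, *Fosb* and *Nr4a1* at 10 weeks, and *Nr4a1* over all 24 mice and at 5 and 30 weeks kept their direction in every fit run.

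Same-numbered mice of the 2 genotypes had deviations with correlations from 0.011 to 0.156 at 8 weeks and from 0.0082 to 0.260 at 10 weeks. Mice with different numbers had correlations from -0.165 to 0.121 at 8 weeks and from -0.273 to 0.165 at 10 weeks. With 3 mice per group these values cannot decide whether the replicate numbers pair the mice. With the replicate number as a block, *Ier2* and *Hist2h2be* were called at 8 weeks and *Nr4a1* at 10 weeks, and *Egr1* at 8 weeks turned to -0.061.

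Over all genes, 410 were called over 24 mice, 962 at 8 weeks, 37 at 10 weeks and 198 at 5 and 30 weeks, against 815, 2084, 280 and 791 with DESeq2. With the heat shock level these were 437, 52, 6 and 1392.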

Other observations

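*Mki67* ran against *Fosb* at 5 and 30 weeks. This marker of cycling cells, chosen after its values were seen, was at 28.3, 31.0, 29.7, 16.3, 20.7 and 18.5 CPM in *WT* libraries 7 to 12 and at 18.6, 13.4, 19.0, 31.6, 35.4 and 39.7 CPM in *iRhom2-/-* libraries 7 to 12. In each genotype the 3 libraries with less *Mki67* were the 3 with more *Fosb*. Each genotype of this set holds 3 mice of 5 weeks and 3 of 30 weeks. The age of each library is not known, and the part of age in this split was not tested. At 10 weeks, where *Nr4a1* was lower in *iRhom2-/-*, *Mki67* was at 17.8 to 24.5 CPM in *WT* and at 26.0 to 36.2 CPM in *iRhom2-/-*, without overlap (log2 fold change 0.51, SE 0.16, edgeR adjusted p = 0.501). Of the 12 genes of S phase and mitosis, 11 had positive log2 fold changes at 10 weeks, with a median of 0.37. There edgeR called none, while 7 had an unadjusted p under 0.05 (7.79% of all genes). At 8 weeks 10 of the 12 were negative, with a median of -0.25, and edgeR called none. An unadjusted p under 0.05 was found for 1, *Mki67* (-0.52, SE 0.20, edgeR adjusted p = 0.204), and for 19.8% of all genes.

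Of 7 neutrophil markers, 6 had positive log2 fold changes at 10 weeks, with a median of 0.57. There edgeR called none, while 3 had an unadjusted p under 0.05 (7.79% of all genes). At 8 weeks 6 of the 7 were negative, with a median of -0.16, and edgeR called none, while 2 had an unadjusted p under 0.05 (19.8% of all genes). The genes whose deviations over 24 libraries were most like those of *Nr4a1*, named after its values were seen, were *Dbpht2* (r = 0.89), *Zbtb44* (0.89), *Rpgr* (0.86), *Fosb* (0.86) and *Dnajb1* (0.86), the last being an HSP40 gene of the heat shock list.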
